A study of Mus musculus with 12 samples.

Results

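The genes described here are the mouse families that carry the cell cycle in their names: cyclins A, B, D and E, the Cdk, Cdc, Mcm, Kif, Cenp, Aurk, Bub and Plk series, and Top2a and Mki67. Members were taken by symbol, from families picked with earlier results of these data known, and 151 of the 18050 genes in the deposited expression table carry such a symbol. Of these, 74 act in DNA replication, mitosis or their control by known function and are called division members below. The other 77 are known mainly from transport, transcription, the cytoskeleton or protein turnover, or are CDKs other than Cdk1, Cdk2, Cdk4 and Cdk6. Some of these 77, such as Cdc34, Cenpj, Cenpv and Cdk7, also have known links to division.

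Poly(A)-selected RNA was sequenced from the left ventricle of wild-type mice on day 7 after surgery. The MI group, read here as myocardial infarction (ischaemic death of part of the heart wall), held 6 libraries, and the sham group, operated without the injury, held 6 libraries. Neither group carried a transgene or a drug treatment in the labels, and the labels give no age or sex. Replicates 1 and 2 of each group form a set of their own in the submitters' notes, and replicates 3 to 6 form the other set. Nothing in the labels ties a library to an animal of its own, so the p-values measure the spread among these libraries alone, and that spread may be technical.

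Dividing cells pass from G1, where D and E cyclins drive the kinases Cdk4, Cdk6 and Cdk2, into S phase, where the Mcm helicase opens DNA at replication origins. A and B cyclins then activate Cdk1, and Polo, Aurora and Bub kinases, mitotic kinesins and centromere (CENP) proteins carry the chromosomes through mitosis. In the adult heart most muscle cells have left the cycle, and an infarct is a known site of division of fibroblasts, endothelial cells and leukocytes in the first week.

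Cell-cycle promoters are known for short shared motifs, so the promoter sequences of 6 members are shown here beside the levels that follow. The CHR motif (TTTGAA) and the CCAAT box bound by NF-Y are known from G2 and M phase genes, and E2F sites (searched as TTCCCGC and TTGGCGC) from S phase genes. Each stretch runs 5′ to 3′ from 120 bases before to 30 bases after a RefSeq transcript start on GRCm38.p6 and ends in the first exon. Capitals mark the motif letters on either strand, so ATTGG is the CCAAT box read on the opposite strand, as TTCAAA in Top2a is the CHR. Cdk1, Ccnb2 and Top2a are shown as genes that rose after MI, Cenpa and Cenpf as genes that fell, and Mcm6 as a replication gene that rose. The stretches lie at chr10:69352883-69353032 (minus strand, Cdk1), chr9:70421525-70421674 (minus, Ccnb2), chr11:99024160-99024309 (minus, Top2a), chr5:30666766-30666915 (plus, Cenpa), chr1:189688057-189688206 (minus, Cenpf) and chr1:128359676-128359825 (minus, Mcm6).
Cdk1: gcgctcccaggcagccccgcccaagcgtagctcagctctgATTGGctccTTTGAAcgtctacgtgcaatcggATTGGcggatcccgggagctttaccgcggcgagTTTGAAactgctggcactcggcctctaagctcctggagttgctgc
Ccnb2: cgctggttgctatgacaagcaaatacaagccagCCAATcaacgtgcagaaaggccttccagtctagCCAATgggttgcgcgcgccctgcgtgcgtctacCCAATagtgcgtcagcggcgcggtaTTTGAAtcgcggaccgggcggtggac
Top2a: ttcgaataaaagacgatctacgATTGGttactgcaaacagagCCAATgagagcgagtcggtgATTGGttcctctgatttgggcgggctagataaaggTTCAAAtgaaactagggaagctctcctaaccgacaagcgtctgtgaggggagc
Cenpa: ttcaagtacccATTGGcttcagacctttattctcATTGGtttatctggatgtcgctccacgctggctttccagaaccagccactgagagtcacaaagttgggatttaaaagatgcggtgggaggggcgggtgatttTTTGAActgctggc
Cenpf: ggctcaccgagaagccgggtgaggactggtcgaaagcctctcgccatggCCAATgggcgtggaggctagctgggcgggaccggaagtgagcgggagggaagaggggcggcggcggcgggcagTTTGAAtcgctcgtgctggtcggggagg
Mcm6: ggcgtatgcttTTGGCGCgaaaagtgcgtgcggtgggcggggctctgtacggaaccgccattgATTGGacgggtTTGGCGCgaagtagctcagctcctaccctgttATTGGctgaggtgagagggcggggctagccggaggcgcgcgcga

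All of these but Mcm6 carry CHR letters within the printed stretch, and their first base lay at -71 and -15 in Cdk1, 5 in Ccnb2, -23 in Top2a, 17 in Cenpa and 3 in Cenpf, counted from the start. Cenpa and Cenpf, which fell, thus hold the same letters as Cdk1, Ccnb2 and Top2a, which rose. Mcm6 holds no CHR letters in its stretch and carries TTGGCGC at -109 and -46. RefSeq windows of 250 bases before to 50 after the start were found for 130 of the 151 members, as 149 windows. CHR letters stood in 9 of 10 windows of the mitotic kinesins (90.0%), in 71.4% of 7 windows of the mitotic kinases and checkpoint genes, in 12.3% of 14401 windows of all genes tested and in 17.9% of all 32851 RefSeq windows, which cover 27025 genes. The CCAAT box stood in 60.0% and 85.7% of the windows of these 2 roles, against 37.3% for all genes tested and 37.4% of all windows. An E2F form stood in 64.3% of the 14 windows of the replication genes, against 11.2% for all genes tested and 6.81% of all windows. Division members called higher after MI had CHR in 38.9% of 36 windows, the CCAAT box in 75.0% and an E2F form in 33.3%. Those tested but not called higher had CHR in 42.4% of 33 windows, the CCAAT box in 69.7% and an E2F form in 42.4%, and the differences were not tested. CCAAT can overlap TTGGCGC at the letters TTGG, and such overlaps were counted for both motifs. A match is a description of letters and was not tested as a binding site.

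**Figure D1:**
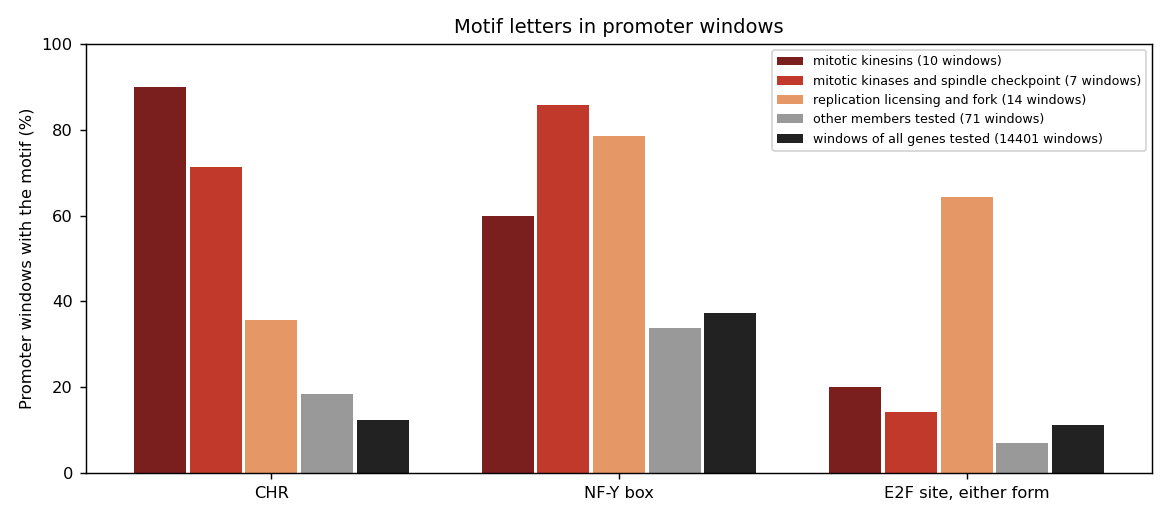
Share of RefSeq promoter windows (percent, y axis) that hold each motif, for 3 groups of division members by role, the other members tested and all genes tested. The bars of the mitotic kinesins reach 90.0% for CHR and those of the replication genes 64.3% for an E2F form, against 12.3% and 11.2% for all genes tested; NF-Y box stands for the CCAAT box.

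Expected counts summed to between 14168412 and 18602226 per MI library and between 9140353 and 16066681 per sham library. Levels are CPM scaled by TMM (edgeR's trimmed mean of M-values), and log2 fold changes are MI over sham. Replicates 3 to 6 lay very close together, with a biological coefficient of variation of 0.0208 in MI and 0.0295 in sham, against 0.196 in MI and 0.113 in sham for replicates 1 and 2. A gene was called only when 2 edgeR quasi-likelihood tests gave a Benjamini-Hochberg adjusted p under 0.05 in the same direction, over 12 libraries and with replicates 3 to 6 of each group summed to 1 library. The labelled tissue held its markers, and all 8 cardiomyocyte genes listed were above 0 in every group. These 8 markers summed to between 4491 and 6942 CPM in MI replicates 1 and 2 and 24491 and 24971 in MI replicates 3 to 6, against 82480 and 85032 in the sham libraries, and all 8 were called lower. Of 8 fibroblast markers 7 were higher (22578 to 55709 CPM summed in MI, 2922 to 3296 in sham), and of 8 macrophage markers 7 were higher (3367 to 5254 CPM summed in MI, 581 to 979 in sham). Some lists differed between the libraries of replicates 1 and 2. Erythroid precursor markers, none of 8 called, summed to 9006 and 975 CPM in MI replicates 1 and 2 and 1538 to 1599 CPM in MI replicates 3 to 6, against 3204 to 4721 CPM in sham. Neutrophil markers, 3 of 7 higher, summed to 29.8 and 69.5 CPM in MI replicates 1 and 2 and 43.7 to 47.4 CPM in MI replicates 3 to 6, against 3.74 to 26.8 CPM in sham. Mesothelium markers, 2 of 5 higher, summed to 114 and 195 CPM in MI replicates 1 and 2 and 27.0 to 30.1 CPM in MI replicates 3 to 6, against 29.3 to 49.3 CPM in sham. In bulk tissue fewer cells of a type and less RNA per cell cannot be told apart, and the part of these marker shifts in each result below was not tested. MI replicates 3 to 6 also held lung epithelial transcripts (171 to 176 CPM summed over 7 markers without Hopx, against 3.73 or less in all other libraries), and Sftpa1 and Sftpd were at 0 outside them. The beta-globin genes Hbb-bs and Hbb-bt made up 0.1151% of beta-globin counts in MI replicates 3 to 6 and 99.95% in sham replicates 3 to 6, so a strain difference there cannot be told apart from the group. Both genes are on the erythroid precursor list, while Hbb-b1 and Hbb-b2 are not. The erythroid sum of MI replicates 3 to 6 thus leaves out nearly all beta-globin counts there and cannot be compared directly with the sham sums.

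After MI, 57 of the 142 members that passed the filter on low counts were higher, 26 were lower and 59 were not called, as 40.1% and 18.3%. Among all 14152 genes tested 27.7% were higher and 29.0% lower. Of the 71 division members tested 39 were higher and 5 lower (54.9% and 7.04%), with a median log2 fold change of 1.11 against 0.04 for all genes. Of the other 71 members tested 18 were higher and 21 lower, with a median of 0.12, shares (25.4% and 29.6%) that lie close to those of all genes. Each of the 6 MI libraries was above each of the 6 sham libraries for 39 division members and below them for 3, and for 12 and 17 of the other members, against 21.3% above and 20.4% below among all genes tested. The count of division members called higher rested on single libraries of replicates 1 and 2. It was 14 without sham replicate 1 and 21 without MI replicate 2, which leaves 2 libraries of that group in the summed test. Of the 83 members called in either direction, 42 were called without sham replicate 1, 60 without sham replicate 2, 59 without MI replicate 1, 49 without MI replicate 2 and 50 without the set covariate. With scaling by library size alone the median of all genes moved up by 0.39, with 88 members higher and 13 lower, and over all genes it moved the higher share of calls to 71.8%, from 48.8% with TMM. The direction of a fall smaller than this shift, and the size of a small rise, thus depend on the scaling, and Cdc14b and Cdc42ep1 changed sign. Some larger falls depend on it too. In the deposited TPM, which were not tested, Cenpb, Cdc42ep3 and Cenpx, all called lower, had higher means in MI than in sham in both sets. Cenpb, for example, had 227 TPM in MI against 216 in sham in replicates 1 and 2, and 113 against 93.5 in replicates 3 to 6. With the size factors of DESeq2 81 of the 83 calls were kept and none of the 83 changed sign.

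**Figure D2:**
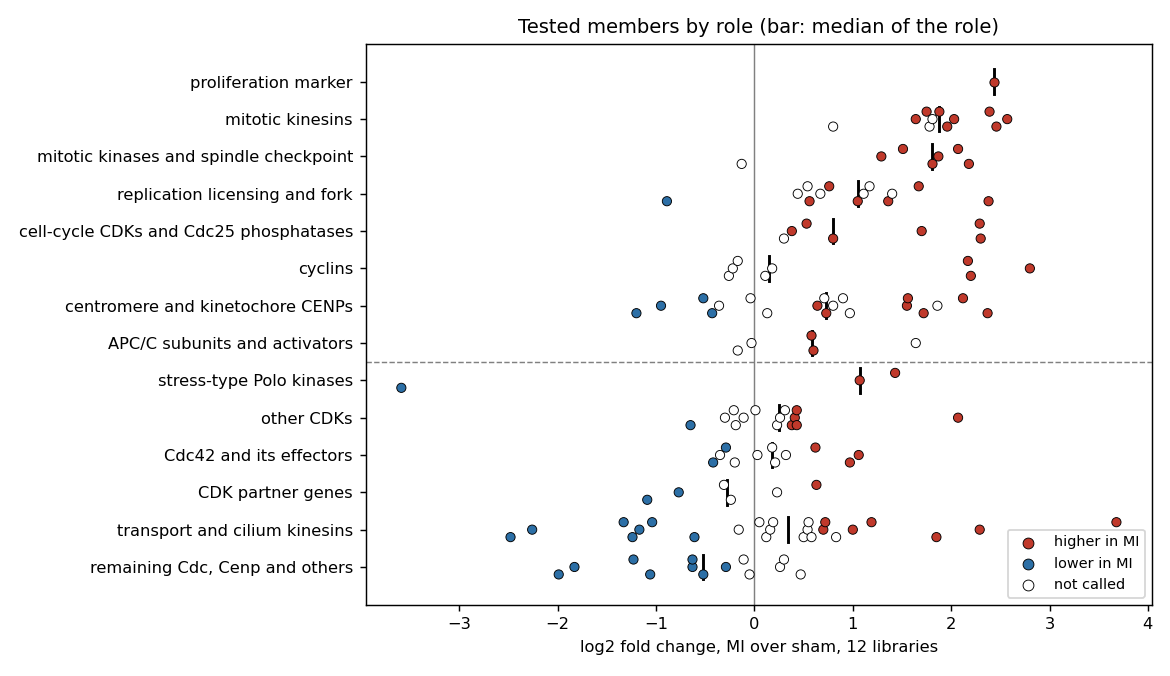
Log2 fold change, MI over sham, of each tested member (x axis) by role (rows), with division roles above the dashed line, coloured by call, and a bar at each role's median. Mitotic kinesins and mitotic kinases sit near 1.88 and 1.81, while the remaining Cdc, Cenp and other members sit near -0.52; the lower calls of Cdc14b and Cdc42ep1 change sign with library-size scaling.

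Mki67, the antigen used to mark cycling cells (chr7:135689784-135716450), rose after MI. It had 33.4 and 42.1 CPM in MI replicates 1 and 2 and 73.6, 75.2, 75.7 and 73.7 CPM in MI replicates 3 to 6, against 10.6 and 16.7 CPM in sham replicates 1 and 2 and 9.69, 6.99, 10.1 and 11.1 CPM in sham replicates 3 to 6. The groups did not overlap in either set, and the MI libraries of replicates 3 to 6 were the highest. Mki67 rose by a log2 fold change of 2.44 (SE 0.25), with an adjusted p of 2.57e-06 over 12 libraries and of 0.00642 with replicates 3 to 6 summed. The counts behind these levels ran from 698 to 1241 per MI library and from 57 to 226 per sham library. Top2a, the topoisomerase that untangles replicated chromosomes, had 27.4 and 42.2 CPM in MI replicates 1 and 2 and 52.0 to 54.7 CPM in MI replicates 3 to 6, against 8.70 and 15.7 CPM in sham replicates 1 and 2 and 6.76 to 7.96 CPM in sham replicates 3 to 6. Sham replicate 2 stood well above the other sham libraries but below every MI library. The log2 fold change of Top2a was 2.38 (SE 0.24, adjusted p = 2.50e-06 and 0.00819).

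The cyclins of S and M phase rose. Ccnb1, the main mitotic cyclin, had 9.77 and 11.4 CPM in MI replicates 1 and 2 and 14.7 to 17.1 CPM in MI replicates 3 to 6, against 1.98 and 2.88 CPM in sham replicates 1 and 2 and 1.15 to 2.11 CPM in sham replicates 3 to 6. Every MI library was above every sham library, and the difference was 2.80 on the log2 scale (SE 0.21, adjusted p = 1.75e-07 and 0.00223). Ccna2, which pairs with Cdk2 and Cdk1, had 18.5 and 27.0 CPM in MI replicates 1 and 2 and 29.8 to 33.3 CPM in MI replicates 3 to 6, against 5.34 and 10.1 CPM in sham replicates 1 and 2 and 3.80 to 6.64 CPM in sham replicates 3 to 6. It rose with 2.20 on the log2 scale (SE 0.22, adjusted p = 2.21e-06 and 0.00632), and other genes' exons cover 12.5% of its exons on the opposite strand. Ccnb2 rose with 2.17 (SE 0.29), a call lost without sham replicate 1 or MI replicate 2.

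Of 7 cell-cycle CDKs and Cdc25 phosphatases 6 rose (85.7%, against 27.7% of all genes), with a median of 0.80. Cdk1, the mitotic kinase (chr10:69335146-69352912), had 17.9 and 20.1 CPM in MI replicates 1 and 2 and 32.1 to 33.9 CPM in MI replicates 3 to 6, against 5.19 and 10.1 CPM in sham replicates 1 and 2 and 4.04 to 5.03 CPM in sham replicates 3 to 6. The groups did not overlap, and Cdk1 rose by 2.29 on the log2 scale (SE 0.26, adjusted p = 6.31e-06 and 0.0123), but the call was lost without sham replicate 1. Cdk6, a partner of D cyclins, had 62.7 and 67.4 CPM in MI replicates 1 and 2 and 38.9 to 40.8 CPM in MI replicates 3 to 6, against 13.4 and 18.5 CPM in sham replicates 1 and 2 and 11.9 to 15.9 CPM in sham replicates 3 to 6. Its MI levels were highest in replicates 1 and 2, the reverse of Mki67, and it rose with 1.70 (SE 0.11, adjusted p = 5.53e-08 and 0.00149). Cdk4, the other D-cyclin kinase, rose by less, with 0.38 (SE 0.05), and Cdk2 with 0.53 (SE 0.07). Both calls were lost without sham replicate 1, and 19.7% of the Cdk4 exons are overlapped on the opposite strand. Cdc25b, which removes inhibitory phosphates from CDKs, rose with 0.80 (SE 0.10, adjusted p = 1.09e-05 and 0.00649). Cdc25c rose with 2.30 (SE 0.39) and had at most 0.981 CPM in any sham library. Cdc25a was not called (0.30, SE 0.14), with 10.7 to 13.6 CPM in MI and 6.56 to 14.3 CPM in sham.

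Of 7 tested mitotic kinases and checkpoint genes 6 rose (85.7%, against 27.7% of all genes) and none fell, with a median of 1.81. Plk1, the Polo kinase of mitotic entry, had 10.1 and 12.9 CPM in MI replicates 1 and 2 and 8.60 to 9.40 CPM in MI replicates 3 to 6, against 3.13 and 4.51 CPM in sham replicates 1 and 2 and 1.35 to 2.25 CPM in sham replicates 3 to 6. MI replicate 2 was the highest library, and no sham library reached the lowest MI library. Plk1 rose with 2.07 (SE 0.18, adjusted p = 6.50e-07 and 0.00370). Aurkb, the kinase of the chromosomal passenger complex, had 7.76 and 9.14 CPM in MI replicates 1 and 2 and 7.69 to 8.99 CPM in MI replicates 3 to 6, against 3.28 and 4.36 CPM in sham replicates 1 and 2 and 1.19 to 2.46 CPM in sham replicates 3 to 6. It rose with 1.81 (SE 0.22, adjusted p = 9.54e-06 and 0.00935). Bub1 (2.18) and Bub1b (1.87), both of the spindle checkpoint, Aurka (1.51), of the spindle poles, and Plk4 (1.29), of centriole duplication, rose too. The calls of Bub1, Bub1b, Aurka and Plk4 were lost without sham replicate 1. Bub3, a checkpoint partner that also serves outside mitosis, was the most abundant of the role in CPM, with 42.6 to 53.7 CPM in MI and 49.5 to 58.3 CPM in sham. Its groups overlapped with the sets pooled, while within each set every MI library was below every sham library. Bub3 was not called (-0.13, SE 0.04, adjusted p = 0.0154 and 0.207).

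Of 11 mitotic kinesins 8 rose (72.7%, against 27.7% of all genes) and none fell, with a median of 1.88. Summed over the role they had 59.3 and 85.8 CPM in MI replicates 1 and 2 and 107 to 112 CPM in MI replicates 3 to 6, against 24.7 and 43.5 CPM in sham replicates 1 and 2 and 18.8 to 23.8 CPM in sham replicates 3 to 6. For each of the 11, MI replicate 2 lay above MI replicate 1 and sham replicate 2 above sham replicate 1. Kif15, a spindle motor, had 4.36 and 5.14 CPM in MI replicates 1 and 2 and 7.39 to 8.30 CPM in MI replicates 3 to 6, against 0.992 and 1.33 CPM in sham replicates 1 and 2 and 0.821 to 1.59 CPM in sham replicates 3 to 6. The groups were far apart in both sets, and Kif15 rose with 2.46 (SE 0.18, adjusted p = 1.17e-07 and 0.00243). Kif20a, a motor of cytokinesis, had 10.2 and 17.4 CPM in MI replicates 1 and 2 and 15.8 to 19.3 CPM in MI replicates 3 to 6, against 5.57 and 6.13 CPM in sham replicates 1 and 2 and 1.99 to 4.39 CPM in sham replicates 3 to 6. It rose with 1.96 (SE 0.25, adjusted p = 1.75e-05 and 0.00944), and 29.3% of its exons are overlapped on the opposite strand. Kif2c (2.57), a microtubule depolymerase, Kif14 (2.39), of cytokinesis, Kif22 (2.03) and Kif4 (1.64), which bind chromosomes, Kif20b (1.88) and Kif11 (1.75), which pushes the spindle poles apart, also rose. All 6 of these calls were lost without sham replicate 1. Kif23, of the central spindle, was not called. It had 8.04 and 9.92 CPM in MI replicates 1 and 2 and 16.2 to 18.4 CPM in MI replicates 3 to 6, against 4.58 and 7.17 CPM in sham replicates 1 and 2 and 2.82 to 3.79 CPM in sham replicates 3 to 6 (1.78, SE 0.29, adjusted p = 0.000133 and 0.0570). The groups did not overlap, and only the test with replicates 3 to 6 summed was missed. Kif18b (1.81) and Kif18a (0.80), which align chromosomes or shorten microtubules at the spindle, were not called either.

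**Figure D3:**
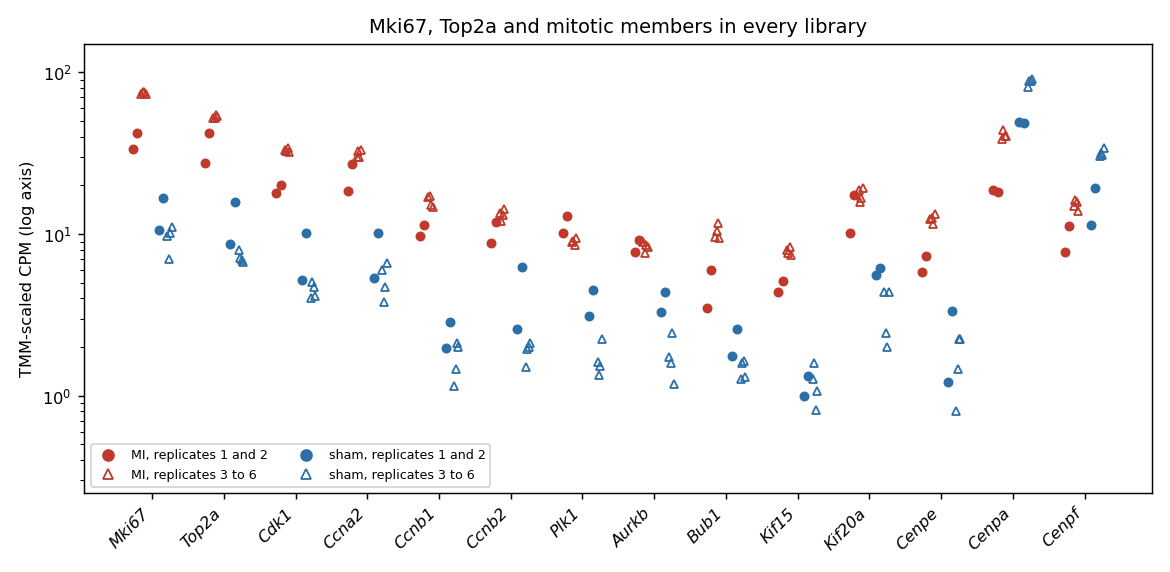
TMM-scaled CPM on a log axis of Mki67, Top2a and 12 mitotic members in every library, MI in red left of sham in blue, filled circles for replicates 1 and 2 and open triangles for replicates 3 to 6. Mki67 to Cenpe lie higher in MI without overlap of the groups, while Cenpa lies lower in MI, with 18.1 to 44.0 CPM against 48.5 to 91.0 CPM in sham, and Cenpf lies lower within each set except that MI replicate 2 is close to sham replicate 1.

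The centromere and kinetochore genes moved both ways, with 7 of 19 higher and 4 lower (36.8% and 21.1%, against 27.7% and 29.0% of all genes) and a median of 0.73. Cenpt, which links the centromere to the outer kinetochore, had 11.8 and 12 CPM in MI replicates 1 and 2 and 9.12 to 11.9 CPM in MI replicates 3 to 6, against 2.90 and 5.17 CPM in sham replicates 1 and 2 and 2.58 to 4.61 CPM in sham replicates 3 to 6. The groups did not overlap, and Cenpt rose with 1.56 (SE 0.16, adjusted p = 2.35e-06 and 0.00479). Cenpe, a kinesin that moves chromosomes to the spindle equator, rose with 2.37 (SE 0.30), Cenpi with 2.12, Cenpk with 1.72, Cenpm with 1.55, Cenpo with 0.73 and Cenpc1 with 0.64. The calls of Cenpe, Cenpk, Cenpm, Cenpo and Cenpc1 were lost without sham replicate 1.

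Cenpa, the histone H3 variant that marks the centromere, fell. It had 18.8 and 18.1 CPM in MI replicates 1 and 2 and 38.5, 44.0, 40.2 and 40.2 CPM in MI replicates 3 to 6, against 49.1 and 48.5 CPM in sham replicates 1 and 2 and 81.6, 88.8, 89.0 and 91.0 CPM in sham replicates 3 to 6. Every MI library was below every sham library, and both groups were about as far apart in each set (log2 fold change -1.41 in replicates 1 and 2 and -1.09 in replicates 3 to 6). Over 12 libraries the value was -1.20 (SE 0.07, adjusted p = 1.17e-08 and 0.00105), a call lost without the set covariate. Per length Cenpa was the second most abundant of its role after Cenpb in the deposited TPM, at a mean of 82.7 TPM over the 12 libraries. Cenpf, a large protein of the kinetochore and nuclear envelope, had 7.71 and 11.2 CPM in MI replicates 1 and 2 and 13.8 to 16.2 CPM in MI replicates 3 to 6, against 11.4 and 19.4 CPM in sham replicates 1 and 2 and 30.6 to 34.3 CPM in sham replicates 3 to 6. It had a log2 difference of -0.95 (SE 0.13, adjusted p = 4.22e-05 and 0.0384), and the call was lost with library-size scaling and without sham replicate 2 or MI replicate 1. Cenpb, which binds centromeric satellite DNA, had 263 to 276 CPM in MI replicates 1 and 2 and 156 to 164 CPM in MI replicates 3 to 6, against 407 and 414 CPM in sham replicates 1 and 2 and 177 to 220 CPM in sham replicates 3 to 6. It fell by 0.43 on the log2 scale (SE 0.07, adjusted p = 0.000200 and 0.0263), and Cenpx fell by 0.52. Both calls were lost with library-size scaling, without the set covariate and without any one library of replicates 1 and 2. The 8 not called were Cenph (1.86), Cenpu (0.97), Cenpn (0.90), Cenpl (0.80), Cenpw (0.71), Cenps (0.13), Cenpp (-0.04) and Cenpq (-0.36).

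Among the APC/C genes, which tag cyclins for destruction, 2 of 5 rose (40.0%, against 27.7% of all genes) and none fell. Cdc27 had 32.2 and 33.3 CPM in MI replicates 1 and 2 and 54.0 to 55.6 CPM in MI replicates 3 to 6, against 22.4 and 19.9 CPM in sham replicates 1 and 2 and 33.5 to 42.4 CPM in sham replicates 3 to 6. The groups were apart within each set, and Cdc27 rose with 0.58 (SE 0.06, adjusted p = 3.51e-06 and 0.00845), a call lost without the set covariate. Cdc16 rose with 0.60 (SE 0.06, adjusted p = 1.97e-06 and 0.0148), a call lost without sham replicate 1, sham replicate 2 or MI replicate 1. Cdc26 was not called (-0.17, SE 0.08), with 32.4 and 32.9 CPM in MI replicates 1 and 2 and 44.2 to 49.3 CPM in MI replicates 3 to 6, against 28.2 and 30.1 CPM in sham replicates 1 and 2 and 58.7 to 63.6 CPM in sham replicates 3 to 6. It lay above sham in one set and below it in the other. Cdc20, the mitotic activator, missed the summed test (1.64, SE 0.27, adjusted p = 0.000141 and 0.0504), and Cdc23 was not called (-0.03).

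In G1 the D and E cyclins were not called. Ccnd3 had 140 and 104 CPM in MI replicates 1 and 2 and 67.4 to 73.1 CPM in MI replicates 3 to 6, against 143 and 146 CPM in sham replicates 1 and 2 and 80.2 to 93.5 CPM in sham replicates 3 to 6 (-0.26, SE 0.07, adjusted p = 0.00586 and 0.164). It was the most abundant cyclin per length, at a mean of 91.2 TPM in the deposited values. Ccnd2 had 95.5 to 147 CPM in MI and 127 to 183 CPM in sham (-0.17, SE 0.11). Ccne1 had 3.47 to 5.96 CPM in MI and 2.13 to 6.79 CPM in sham (0.18, SE 0.15), and Ccne2 had 2.11 to 5.53 CPM in MI and 2.59 to 4.66 CPM in sham (0.11, SE 0.18). With the sets pooled, the groups of all 5 D and E cyclins overlapped. Within each set, however, every MI library was below every sham library for Ccnd3, and the groups of Ccnd1 did not overlap either. Ccnd1 moved in opposite directions in the sets and is given with the other set differences below.

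**Figure D4:**
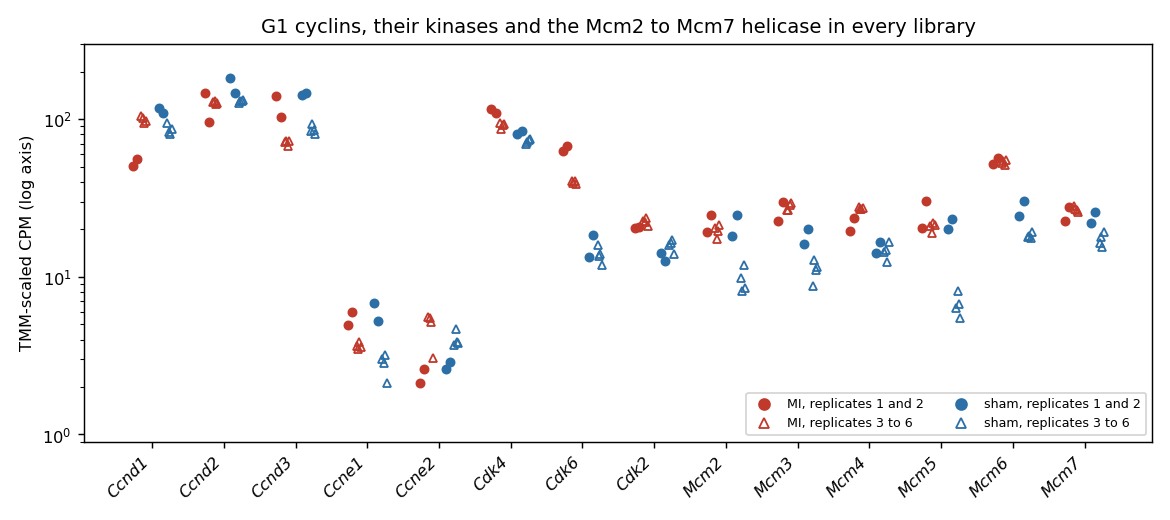
TMM-scaled CPM on a log axis of the D and E cyclins, Cdk4, Cdk6, Cdk2 and Mcm2 to Mcm7 in every library, MI in red left of sham in blue, filled circles for replicates 1 and 2 and open triangles for replicates 3 to 6. With the sets pooled, cyclin levels overlap between the groups, though Ccnd1 and Ccnd3 do not overlap within either set. Cdk6 and Mcm6 do not overlap, with 38.9 to 67.4 CPM in MI and 11.9 to 18.5 CPM in sham for Cdk6.

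Of 13 replication members 6 rose and 1 fell (46.2% and 7.69%, against 27.7% and 29.0% of all genes), with a median of 1.05. Mcm2 to Mcm7 form the helicase in equal copies, and 3 of these 6 genes were called higher. Summed over the 6, they had 156 and 193 CPM in MI replicates 1 and 2 and 171 to 180 CPM in MI replicates 3 to 6, against 115 and 141 CPM in sham replicates 1 and 2 and 73.5 to 80.8 CPM in sham replicates 3 to 6. The MI sums of the sets lay close together, and the sham sums were higher in replicates 1 and 2. Mcm6 had 51.9 and 56.9 CPM in MI replicates 1 and 2 and 51.2 to 55.0 CPM in MI replicates 3 to 6, against 24.3 and 30.2 CPM in sham replicates 1 and 2 and 17.6 to 19.3 CPM in sham replicates 3 to 6. Its groups were wide apart, and it rose with 1.36 (SE 0.10, adjusted p = 1.41e-07 and 0.00286). Mcm3 rose with 1.05 (SE 0.15) and Mcm4 with 0.76 (SE 0.10), and both calls were lost without sham replicate 1. Mcm7 had 22.7 and 27.8 CPM in MI replicates 1 and 2 and 25.8 to 28.2 CPM in MI replicates 3 to 6, against 22.0 and 25.7 CPM in sham replicates 1 and 2 and 15.4 to 19.2 CPM in sham replicates 3 to 6. It was not called (0.44, SE 0.11, adjusted p = 0.00249 and 0.268), and the groups overlapped in replicates 1 and 2 while lying apart in replicates 3 to 6. Mcm2 (0.67) and Mcm5 (1.11) showed the same layout and were not called. Mcm2 had a log2 fold change of 0.03 in replicates 1 and 2 but 1.05 in replicates 3 to 6, and Mcm5 had 0.23 and 1.66.

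Mcm10, a fork factor, rose with 1.67 (SE 0.24), and Mcm9, a helicase of DNA repair, with 0.56 (SE 0.10). Mcm8, the partner of Mcm9, fell by 0.89 on the log2 scale (SE 0.21, adjusted p = 0.00184 and 0.0175), with 1.82 to 5.13 CPM in MI and 5.77 to 7.47 CPM in sham. Its groups did not overlap, and its call was lost with library-size scaling and without sham replicate 1, sham replicate 2, MI replicate 1 or MI replicate 2. Cdc6, which loads the helicase, missed the summed test (1.40, SE 0.22, adjusted p = 0.000109 and 0.0557), as did the S phase kinase Cdc7 (1.17, SE 0.23, adjusted p = 0.000545 and 0.0872). Cdc45, part of the active helicase, was not called (0.54, SE 0.21), and replicates 1 and 2 gave -0.21 where replicates 3 to 6 gave 0.98.

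Cell-cycle genes outside the name families were read from lists of replication, mitosis and cycle-transcription genes. Of 45 mitosis genes 30 rose and 2 fell (66.7% and 4.44%, against 27.7% and 29.0% of all genes), with a median of 1.85. Espl1, separase, had 12.6 and 14.8 CPM in MI replicates 1 and 2 and 7.81 to 8.42 CPM in MI replicates 3 to 6, against 2.67 and 3.62 CPM in sham replicates 1 and 2 and 1.35 to 1.78 CPM in sham replicates 3 to 6. It rose with 2.23 (SE 0.11, adjusted p = 7.36e-09 and 0.00140). Ube2s, which extends ubiquitin chains for the APC/C, fell by 0.78 on the log2 scale (SE 0.07, adjusted p = 1.39e-06 and 0.00322), with 53.0 to 68.2 CPM in MI and 86.3 to 123 CPM in sham. Pttg1, securin, had 8.67 and 8.23 CPM in MI replicates 1 and 2 and 8.93 to 11.0 CPM in MI replicates 3 to 6, against 4.2 and 5.32 CPM in sham replicates 1 and 2 and 59.4 to 68.3 CPM in sham replicates 3 to 6. The sham libraries of replicates 3 to 6 stood far above all others, the sets went opposite ways (0.82 and -2.67), and Pttg1 was not called. The set difference itself was called (-3.57 in the summed test, adjusted p = 9.42e-10 over 12 libraries and 0.0112 with replicates 3 to 6 summed).

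Of 40 replication genes outside the families 8 rose and 8 fell, with a median of 0.51, and these shares (20% each) are below the 27.7% and 29.0% of all genes. The sets differed in this. In replicates 1 and 2 alone 5 of the 40 were higher and 9 lower, where 34.1% and 32.9% of all genes were. In replicates 3 to 6 alone 25 were higher and 9 lower, where 42.2% and 39.5% of all genes were. Tyms, thymidylate synthase, had 23.4 and 26.8 CPM in MI replicates 1 and 2 and 27.7 to 31.3 CPM in MI replicates 3 to 6, against 8.24 and 10.7 CPM in sham replicates 1 and 2 and 5.63 to 9.23 CPM in sham replicates 3 to 6. It rose with 1.73 (SE 0.13, adjusted p = 2.25e-07 and 0.00184). Gmnn, geminin, which blocks helicase loading, had 10.5 and 13.0 CPM in MI replicates 1 and 2 and 28.3 to 30.3 CPM in MI replicates 3 to 6, against 32.9 and 49.7 CPM in sham replicates 1 and 2 and 81.7 to 87.7 CPM in sham replicates 3 to 6. It fell by 1.63 on the log2 scale (SE 0.10, adjusted p = 2.67e-08 and 0.00167). Pcna, the sliding clamp, was not called (0.39, SE 0.08, adjusted p = 0.000813 and 0.149), with 55.1 to 126 CPM in MI and 51.8 to 91.7 CPM in sham.

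Of 19 transcription regulators of the cycle 5 rose and 4 fell, with a median of 0.42, and these shares (26.3% and 21.1%) are no higher than the 27.7% and 29.0% of all genes. Tfdp2, a dimer partner of E2F factors, fell by 1.44 on the log2 scale (SE 0.05, adjusted p = 1.40e-10 and 0.000894), with 26.1 to 36.1 CPM in MI and 68.3 to 97.2 CPM in sham. E2f6, a repressor of the E2F family, fell by 1.59 (log2, SE 0.12, adjusted p = 2.45e-07 and 0.00138), with 22.6 to 59.7 CPM in MI and 102 to 147 CPM in sham. E2f4 was not called (-0.12, SE 0.08). E2f1 (1.30), E2f2 (1.70), Rbl1 (1.39) and Tfdp1 (0.47) were called higher, and Lin52 (-1.19) and Rbl2 (-0.44) lower. These regulators were named after their values were seen. Rbl2 had higher mean deposited TPM in MI than in sham in both sets, so the direction of its fall depends on the scaling. Foxm1, an activator of mitotic genes named after its values were seen, rose with 2.05 (SE 0.30). It had 12 and 17 CPM in MI replicates 1 and 2 and 9.36 to 11.3 CPM in MI replicates 3 to 6, against 5.72 and 8.72 CPM in sham replicates 1 and 2 and 1.30 to 1.47 CPM in sham replicates 3 to 6. Over all 3 lists 43 of 104 genes were higher and 14 lower, but without sham replicate 1 the higher count was 17 and without MI replicate 2 it was 22.

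The remaining Cdc, Cenp and other members, known mainly from roles outside replication and mitosis, were grouped together. Of 13 tested none rose and 8 fell (61.5%, against 29.0% of all genes), with a median of -0.52. Cdc34, a ubiquitin-conjugating enzyme, had 55.0 and 52.7 CPM in MI replicates 1 and 2 and 77.6 to 82.5 CPM in MI replicates 3 to 6, against 232 and 237 CPM in sham replicates 1 and 2 and 248 to 265 CPM in sham replicates 3 to 6. All MI libraries were far below all sham libraries, and Cdc34 fell by 1.83 on the log2 scale (SE 0.08, adjusted p = 2.10e-09 and 0.000884). Cenpv had 3.21 to 5.04 CPM in MI and 14.5 to 19.7 CPM in sham and fell by 1.99 (log2, SE 0.11, adjusted p = 1.39e-08 and 0.00104). Cdc37l1, a relative of the kinase co-chaperone Cdc37, fell by 1.23 (log2, SE 0.09), and Aurkaip1, a protein of mitochondrial ribosomes, by 1.06 (log2, SE 0.06). Cdc37 (-0.63), Cdc123 (-0.63), of translation initiation, Cdc40 (-0.52), of splicing, and Cdc14b (-0.29), a phosphatase, were called lower too. Those 4 calls were lost with library-size scaling, under which Cdc14b changed sign. Cdc5l, of splicing, was not called (-0.11, SE 0.07), with 36.3 and 37.1 CPM in MI replicates 1 and 2 and 53.5 to 55.7 CPM in MI replicates 3 to 6, against 47.6 and 48.4 CPM in sham replicates 1 and 2 and 50.3 to 55.4 CPM in sham replicates 3 to 6. Cdc73, Cdc14a, Mcm3ap and Cenpj were not called, with log2 fold changes of -0.05 to 0.47.

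Of 24 kinesins of transport and cilia 7 rose and 7 fell, and these shares (29.2% each) are near the 27.7% and 29.0% of all genes. Kif26b, an atypical kinesin, had 133 and 124 CPM in MI replicates 1 and 2 and 13.0 to 14.3 CPM in MI replicates 3 to 6, against 14.3 and 12.5 CPM in sham replicates 1 and 2 and 0.231 to 1.06 CPM in sham replicates 3 to 6. MI was higher within each set, but the MI libraries of replicates 3 to 6 were at about the level of the sham libraries of replicates 1 and 2. Its log2 fold change, 3.68 with an SE of 0.21 (adjusted p = 1.67e-08 and 0.000815), was the highest of the members tested, on 2 to 9 counts per sham library of replicates 3 to 6, and the call was lost without the set covariate. Kif21b rose with 2.29 (SE 0.23), Kif9, of cilia, with 1.85, Kif7, of Hedgehog signalling, with 1.19, Kif1a with 1.00, Kif3b, of the cilium motor, with 0.72 and Kif13b with 0.70. Kif16b, an endosome motor, had 19.0 and 21.4 CPM in MI replicates 1 and 2 and 26.8 to 27.4 CPM in MI replicates 3 to 6, against 75.5 and 74.0 CPM in sham replicates 1 and 2 and 50.9 to 58.3 CPM in sham replicates 3 to 6. It fell by 1.33 on the log2 scale (SE 0.13, adjusted p = 1.49e-06 and 0.00178). Kif1c, a vesicle motor and the most abundant kinesin of the table's members per length (mean of 138 TPM), fell by 1.24 (log2, SE 0.16), with 272 to 328 CPM in MI and 539 to 1224 CPM in sham. Kif13a (-1.17), Kif21a (-1.04) and Kif1b (-0.61) were lower, and so were the low-count Kif6 (-2.26) and Kif28 (-2.48), with at most 2.14 and 0.434 CPM in MI. Kif5b, the conventional kinesin heavy chain, was not called (0.16, SE 0.10), with 106 to 272 CPM in MI and 133 to 215 CPM in sham. The other 9 not called ran from -0.16 (Kif26a) to 0.83 (Kif5c).

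Of 14 tested CDKs other than Cdk1, Cdk2, Cdk4 and Cdk6, 5 rose and 1 fell (35.7% and 7.14%, against 27.7% and 29.0% of all genes), with a median of 0.24. Cdk14, a cyclin Y partner in Wnt signalling, had 56.7 and 61.2 CPM in MI replicates 1 and 2 and 41.8 to 45.9 CPM in MI replicates 3 to 6, against 7.78 and 8.35 CPM in sham replicates 1 and 2 and 11.5 to 15.8 CPM in sham replicates 3 to 6. The groups were far apart in both sets, with a log2 difference of 2.07 (SE 0.19, adjusted p = 8.85e-07 and 0.00183). Cdk9 and Cdk13 (0.43 each), Cdk12 (0.41), all of transcription elongation, and Cdk17 (0.38) were called higher, and all 4 calls were lost without sham replicate 1. Cdk16, a PCTAIRE kinase, had 169 and 128 CPM in MI replicates 1 and 2 and 88.9 to 97.7 CPM in MI replicates 3 to 6, against 288 and 262 CPM in sham replicates 1 and 2 and 129 to 137 CPM in sham replicates 3 to 6. It fell by 0.65 on the log2 scale (SE 0.09, adjusted p = 2.27e-05 and 0.0105), a call lost with library-size scaling, without the set covariate and without MI replicate 2. The 8 not called ran from -0.30 (Cdk18) to 0.31 (Cdk20).

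Among the Polo kinases of stress responses Plk2 and Plk3 rose and Plk5, which lacks a working kinase domain in humans, fell. Plk2 had 91.1 and 102 CPM in MI replicates 1 and 2 and 86.7 to 91.3 CPM in MI replicates 3 to 6, against 44.0 and 40.4 CPM in sham replicates 1 and 2 and 42.3 to 48.1 CPM in sham replicates 3 to 6. Both sets gave nearly the same levels, and the log2 difference was 1.07 (SE 0.06, adjusted p = 1.40e-08 and 0.00172). Plk5 had 0 to 0.244 CPM in MI, on 0 to 4 counts per library, and 1.06 to 2.29 CPM in sham, on 9 to 30 counts. Its log2 fold change was -3.59 (SE 0.43, adjusted p = 9.53e-06 and 0.00762).

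Of 11 genes of Cdc42, a regulator of the actin cytoskeleton, and its effectors 3 rose and 2 fell, with a median of 0.18, and these shares (27.3% and 18.2%) are no higher than the 27.7% and 29.0% of all genes. Cdc42se1, a small effector, had 90.4 and 93.1 CPM in MI replicates 1 and 2 and 63.3 to 69.7 CPM in MI replicates 3 to 6, against 38.7 and 41.7 CPM in sham replicates 1 and 2 and 33.7 to 40.7 CPM in sham replicates 3 to 6. It rose with 0.97 (SE 0.07, adjusted p = 1.78e-07 and 0.00216). Cdc42ep5 rose with 1.06 (SE 0.13, adjusted p = 1.65e-05 and 0.00576). Cdc42 itself, the most abundant of all 151 members per length (mean of 346 TPM), had 329 and 466 CPM in MI replicates 1 and 2 and 524 to 545 CPM in MI replicates 3 to 6, against 265 and 256 CPM in sham replicates 1 and 2 and 332 to 365 CPM in sham replicates 3 to 6. It was called higher (0.62, SE 0.08, adjusted p = 2.70e-05 and 0.0482), a call lost without any one library of replicates 1 and 2. Cdc42ep3 (-0.42) and Cdc42ep1 (-0.29) were called lower, both calls were lost with library-size scaling, and Cdc42ep1 changed sign there. Cdc42se2 was not called (0.18, SE 0.07), and the 3 Cdc42bp kinases ran from -0.35 to 0.32.

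Of 6 tested CDK partner genes 1 rose and 2 fell (16.7% and 33.3%, against 27.7% and 29.0% of all genes). Cdk2ap1, a Cdk2-associated protein, had 103 and 97.4 CPM in MI replicates 1 and 2 and 98.2 to 102 CPM in MI replicates 3 to 6, against 178 and 160 CPM in sham replicates 1 and 2 and 167 to 180 CPM in sham replicates 3 to 6. The groups did not overlap, and it fell by 0.77 on the log2 scale (SE 0.05, adjusted p = 5.49e-08 and 0.00413), a call lost with library-size scaling. Cdk5rap2, of the centrosome, rose with 0.63 (SE 0.12). Cdk5rap1, which modifies transfer RNA, fell and is given with the set differences. Cdk2ap2 was not called (-0.24, SE 0.08), nor were Cdk5r1 (-0.31) and Cdk5rap3 (0.23).

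Within each set alone the members gave the following. In replicates 1 and 2, 56 of 143 members were higher and 27 lower, where 34.1% and 32.9% of all genes tested were higher and lower. In replicates 3 to 6, 89 of 140 were higher and 34 lower, where 42.2% and 39.5% of all genes were. The division members had a median log2 fold change of 0.70 in the first set, where 32 of 71 were called higher and 4 lower, and of 1.35 in the second, where 58 were called higher and 9 lower. The medians of all genes were 0.07 and 0.03. For 59 of the 71 division members the fold change was larger in replicates 3 to 6, a larger share than the 7064 of 14152 among all genes tested. For single genes such as Mki67 the set difference was not called (1.44, adjusted p = 8.49e-05 over 12 libraries and 0.0867 with replicates 3 to 6 summed).

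**Figure D5:**
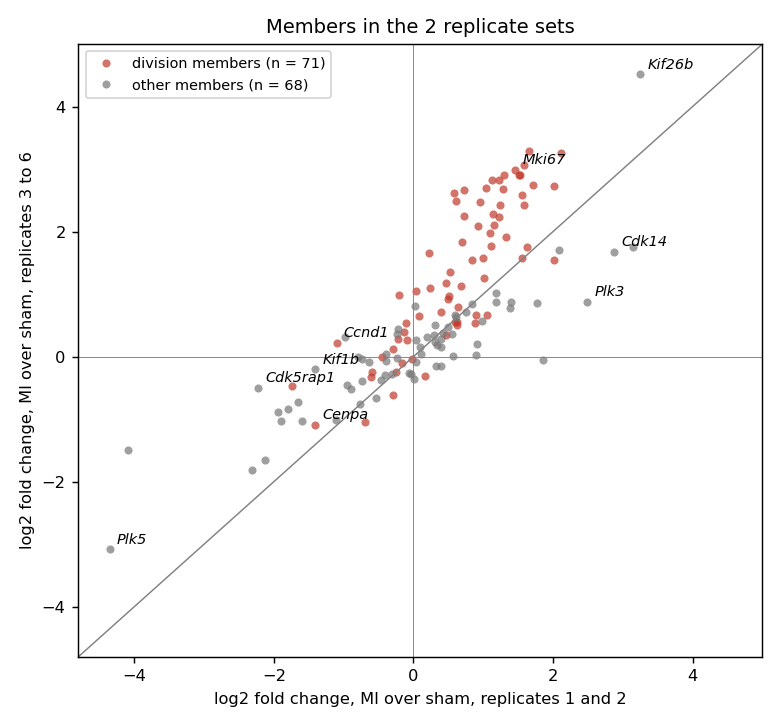
Log2 fold change, MI over sham, of each member in replicates 1 and 2 (x axis) and in replicates 3 to 6 (y axis), with the diagonal of equal change, for 71 division members and 68 other members tested in both sets. Most division members lie above the diagonal, with medians of 0.70 and 1.35, and Ccnd1 lies at -1.10 and 0.22.

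The difference between the sets passed both tests for 5 members, 3 with a larger and 2 with a smaller value in replicates 3 to 6, where 6.13% and 3.41% of all genes did. The shares of members were below these. The 12-library test alone passed 59 members with a larger and 18 with a smaller value in replicates 3 to 6, where 28.8% and 23.5% of all genes passed. Ccnd1, the D cyclin of mitogen response, had 50.2 and 55.5 CPM in MI replicates 1 and 2 and 95.0 to 105 CPM in MI replicates 3 to 6, against 117 and 109 CPM in sham replicates 1 and 2 and 80.9 to 94.8 CPM in sham replicates 3 to 6. MI was the lower group in one set (-1.10, SE 0.12) and the higher in the other (0.22, SE 0.04), a difference of 1.24 in the summed test (adjusted p = 1.53e-07 over 12 libraries and 0.0268 with replicates 3 to 6 summed). Exons of other genes cover 23.4% of the Ccnd1 exons on the opposite strand. Cdk5rap1 had 6.90 and 6.05 CPM in MI replicates 1 and 2 and 11.0 to 12.1 CPM in MI replicates 3 to 6, against 28.8 and 31.5 CPM in sham replicates 1 and 2 and 15 to 19.1 CPM in sham replicates 3 to 6. It was lower in both sets (-2.22 and -0.50), by more in replicates 1 and 2 (difference 1.64, adjusted p = 4.46e-07 and 0.0255). Kif1b, a motor of synaptic vesicles and mitochondria, had 95.1 and 90.9 CPM in MI replicates 1 and 2 and 131 to 140 CPM in MI replicates 3 to 6, against 263 and 229 CPM in sham replicates 1 and 2 and 151 to 166 CPM in sham replicates 3 to 6 (-1.41 and -0.20, difference 1.12, adjusted p = 9.75e-08 and 0.0352). Its lower call over both sets was lost with library-size scaling and without any one library of replicates 1 and 2, and that of Cdk5rap1 without MI replicate 1. Plk3 had 18.7 and 17.3 CPM in MI replicates 1 and 2 and 8.0 to 9.89 CPM in MI replicates 3 to 6, against 3.13 and 3.25 CPM in sham replicates 1 and 2 and 3.81 to 6.04 CPM in sham replicates 3 to 6 (2.49 and 0.88, difference -1.69, adjusted p = 7.77e-05 and 0.0329). Cdk14 also rose by more in replicates 1 and 2 (2.87 and 1.68, difference -1.27, adjusted p = 1.82e-05 and 0.0281). None of the 5 differences was called without sham replicate 1 or without sham replicate 2, and 15 and 14 members were called without MI replicate 1 and MI replicate 2.

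Of the 151 members 9 were not tested. Ccna1 and Ccnb3, cyclins of the germ line, Aurkc, a meiotic Aurora kinase, Ccnb1ip1, Cdc20b, Cdk5r2, Cdk15 and Kif17 were too low, at no more than 0.864 CPM in any library. Kif1bp was blank in replicates 1 and 2, and in replicates 3 to 6 it had 32.7 to 35.3 CPM in MI and 48.1 to 54.7 CPM in sham (log2 fold change -0.62). Exons of other genes overlap more than 10% of the exons of 22 members, and since the sources used here do not give the strand used in counting, levels of those 22 are uncertain by an unknown amount.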

How the data were processed

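RNA-seq of 12 libraries of mouse left ventricle was analysed from 1 deposited table of 18050 genes. Its expected counts per gene were deposited unscaled by the authors, who also gave TPM (each gene's share of the transcripts of its library) and FPKM (fragments relative to the length of the gene and the size of the library). For replicates 1 and 2 alone, FPKM is also in a table of its own. The submitters' processing notes name GRCm38 for all libraries, and Bowtie2, RSEM and DESeq2, without versions, for replicates 3 to 6 only. Other steps, read strand and filters are not given in the sources used here.

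Expected counts were rounded and tested over all genes with the quasi-likelihood F test of edgeR 4.0.16 in R 4.3.3, after filterByExpr and with TMM scaling and the label set as a covariate, over 12 libraries and as 3 against 3 with replicates 3 to 6 of a group summed. A gene was called where both gave a Benjamini-Hochberg adjusted p under 0.05 in the same direction. Where 2 adjusted p-values follow each other, the first is over 12 libraries. The unit of analysis is the library, and the 425 genes blank in replicates 1 and 2, 1 of them a member, were left out of these fits. The tests were also run in each set alone, and the set difference as an interaction. Standard errors are the log2 fold change over the square root of F. The scripts were tested on simulated data. TPM was used to compare levels between genes and, without a test, to look at the direction of a few falls. Over all genes tested, libraries with the same replicate number had correlations of -0.04 to 0.06, and no block was used in the main tests. With 2 libraries per group, replicates 1 and 2 give the same value (0.06) by construction. Pairing among the members alone was not tested, though the mitotic kinesins were higher in replicate 2 than in replicate 1 in both groups.

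Members, role lists, pathway lists and marker lists were chosen with earlier results of these data known, and Kif28 and Kif1bp were placed in their roles after the table was opened. Levels in every library and full statistics go to Mki67, Top2a, the 2 called members of each role with the smallest summed-test p, the most abundant member not called or called against its role, and the 5 with the smallest set-difference p. Other members were chosen after their values were seen. All 151 members were found in RefSeq by symbol or ID. Promoter windows came from RefSeq on GRCm38.p6, with sequence by transcript start. Depth ran from 9140353 to 18602226 expected counts per library, which limits low genes most.

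Tried as alternatives were size factors of DESeq2, scaling to library size alone, the test of DESeq2 1.42.0, limma 3.58.1 on log2(FPKM + 1), + 0.1 and + 0.01, other filters, a 2-fold threshold, the set covariate, a replicate block, blanks taken as 0 and leaving out each library. Figures were drawn with matplotlib 3.10.9.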

Additional observations from a re-analysis of the deposited data

Results flagged for a closer look

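Of 100 groups of 6 libraries checked for a single library far from the rest, 3 held one. The rule would flag about 1 in 20 groups by chance if the 6 libraries were like draws. Replicates 1 and 2 differ in spread from replicates 3 to 6, so the chance rate here is not known. Top2a in sham had its far library in sham replicate 2, at 15.7 CPM, against 6.76 to 8.70 CPM in the other sham libraries. Plk1 in MI had it in MI replicate 2, at 12.9 CPM, against 8.60 to 10.1 CPM in the other MI libraries. Plk2 in MI had it in MI replicate 2 as well, at 102 CPM, against 86.7 to 91.3 CPM in the other MI libraries.

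The MI effect differed between the sets by both tests for 5 members. In the test with replicates 3 to 6 summed, the log2 fold change in replicates 3 to 6 less that in replicates 1 and 2 was 1.24 for Ccnd1, 1.64 for Cdk5rap1, 1.12 for Kif1b, -1.27 for Cdk14 and -1.69 for Plk3.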

How the results depend on the processing

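Of 1349 values of 50 genes under 27 alternatives, 1271 stayed on their side of the threshold, 45 kept the direction but lost the call, 32 gained one and 1 reversed: Pttg1, at 0.82 in replicates 1 and 2 alone, an alternative chosen after seeing the data. For genes not called, direction was compared only where an alternative gave a call. Cdc26, at -0.17 over 12 libraries and 0.16 in replicates 1 and 2 alone, was thus not counted as reversed. The first count of each pair is higher in MI and the second lower. Members gave 57 and 26, all division members 39 higher, the other members 18 and 21, and pathway genes 43 and 14. With library size alone these were 88 and 13, 53 division members, 35 and 12, and 75 and 5. With limma on log2 FPKM plus 1, 0.1 and 0.01 members gave 86 higher and 14, 13 and 13 lower, other members 34 and 12, and pathway genes 73, 74 and 73 higher and 6, 5 and 5 lower. Without the set covariate they gave 36 and 14, other members 10 higher, and pathway genes 5 lower. At 2-fold, 13 members were lower, other members gave 9 and 12, and pathway genes 4 lower. The 12-library test alone gave 73 pathway genes higher. With library size alone, 88 members were higher in replicates 1 and 2 and 18 lower in replicates 3 to 6. The 12-library test alone gave 77 set differences. Leaving out each library gave 24 to 58 members higher and 16 to 27 lower, 14 to 40 division members higher, 10 to 18 other members higher and 14 to 21 lower, 17 to 47 pathway genes higher and 9 to 15 lower, 25 to 59 members higher in replicates 1 and 2, and 0 to 15 set differences. The lowest counts came without sham replicate 1 or MI replicate 2. The cause was not tested, though each omission from replicates 1 and 2 leaves 2 libraries of that group in the summed test. With a replicate block 50 members were higher and 22 lower, 37 of them division members, and 71 of 83 calls were shared. In the separate FPKM table, chosen after seeing the data, 82 of 83 called members had the same sign in replicates 1 and 2 as in the FPKM deposited for 12 libraries. Both hold the same libraries of replicates 1 and 2, with a median absolute log2 difference of 0.01. The comparison therefore shows how alike the deposited values are and does not test the calls. Depth limits the members below about 1 CPM.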
